A study of Mus musculus with 4 samples.

Results

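Transcripts of 8 genes for proteases that cut the extracellular matrix and for their inhibitors were followed through the cell populations of the mouse Achilles tendon: Mmp2, Mmp3, Mmp14, Adamts1, Adamts5, Timp1, Timp2 and Timp3. They were chosen by name from the 15746 genes of the count table, and all 8 had counts. Matrix metalloproteinases (MMPs) and ADAMTS enzymes are zinc proteases that cells secrete or hold at their surface. In tendon they cleave collagen, denatured collagen and large proteoglycans during growth and repair. The tissue inhibitors of metalloproteinases (TIMPs) occupy the active site of these enzymes and block it. TIMP2 has a further role: it bridges pro-MMP2 to MMP14 on the cell surface, where MMP14 activates it, while TIMP3 stays bound to the matrix and also inhibits the ADAMTS aggrecanases.

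The data are single-cell RNA counts from Achilles tendons of male C57Bl/6 mice aged 6 weeks, in 4 libraries of droplet-based 3′ sequencing with unique molecular identifiers (UMIs), which count each captured transcript once. All libraries are replicates of this 1 condition, and the number of mice behind each is not stated, so p-values measure the spread between libraries. The authors assigned every cell to 1 of 13 named populations. They formed these populations from the same counts, so the tests below ask how the 8 genes differ between populations, not whether the populations exist.

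The libraries held 580, 246, 256 and 109 cells (1191 in all) and between 1375111 and 5603366 UMIs, and no barcode was shared between them. The 8 genes made up 0.235% to 0.393% of a library's UMIs. The summed level of 7 tendon markers (Tnmd, Scx and others) was 102145, 80037 and 93077 CPM (UMIs of the gene per 1e+06 UMIs of the sum) in tendon fibroblasts 1, 2 and 3. It was 5520 CPM in bursal fibroblasts, where Tnmd was at 0, and at most 2932 CPM elsewhere. The 6 Schwann cell markers summed to 81582 and 71341 CPM in nerve cells 1 and 2 and to 7837 CPM in nerve cells 3. A level below is the CPM of a gene in the summed UMIs of a population within a library, given as mean ± SD over libraries with 5 or more cells. UMIs count transcript ends, so levels were not divided by gene length. Tendon fibroblasts 3 and endothelial cells 3 had 5 or more cells in library 1 alone and have no SD.

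The proteases share a short active-site stretch, shown here because it is what the TIMPs cover. In this zinc-binding consensus 3 histidines hold the zinc ion and a glutamate acts in catalysis. The lines give its coding strand in GENCODE M21 transcripts (GRCm38, the mm10 assembly that the submitters' processing notes name), 5′ to 3′, with the histidine and glutamate codons in capitals.
Mmp2: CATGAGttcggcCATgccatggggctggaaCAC
Mmp3: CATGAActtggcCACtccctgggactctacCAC
Mmp14: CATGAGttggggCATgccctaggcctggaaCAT
Adamts1: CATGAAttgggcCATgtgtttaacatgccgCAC
Adamts5: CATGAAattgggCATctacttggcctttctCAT
In-frame matches were found in 74 of 21899 protein-coding genes (0.338%), and none of the Timp genes had one. The stretches lie in exon 8 of Mmp2 (chr8:92839279-92839311), exon 5 of Mmp3 (chr9:7449775-7449807) and exon 5 of Mmp14 (chr14:54437627-54437659), all on the plus strand. In Adamts1 (chr16:85799191-85799545) and Adamts5 (chr16:85878015-85887826), both on the minus strand, the codons span the junctions of exons 3 and 4 and of exons 2 and 3.
The MMPs also carry the cysteine switch, a stretch of the propeptide whose cysteine blocks the zinc until the enzyme is activated. It was found in 17 of the 21899 genes, among them the 3 MMPs followed here, and the cysteine codon is in capitals.
Mmp2: ccaagaTGTggcaacccagat
Mmp3: cccaggTGTggtgttcctgat
Mmp14: cctcgcTGTggtgttccggat
Among the inhibitors, Timp1 (chrX:20870166-20874735) and Timp3 (chr10:86300372-86349506) overlap Syn1 and Syn3 on the opposite strand, and Timp2 (chr11:118301069-118355740) overlaps Cep295nl. These neighbours had 14, 283 and 87 UMIs in all cells. How the authors' counting treated strand is not given in the sources used here, so reads of overlapping genes may be mixed.

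Mmp2, the gelatinase that cleaves denatured collagen and basement membrane collagen, was high in 2 of the 3 tendon fibroblast populations and low in the other. Its level in tendon fibroblasts 2 was 795, 1244 and 709 CPM in libraries 1, 3 and 4, and in tendon fibroblasts 3 it was 1164 CPM in library 1. In tendon fibroblasts 1 it was 28.6, 0, 52.6 and 18.9 CPM in libraries 1 to 4, below every value of tendon fibroblasts 2. Bursal fibroblasts spanned a wide range, with 499, 0 and 92.6 CPM in libraries 1, 3 and 4. Elsewhere the mean did not pass 131 CPM, the value of nerve cells 3, where 1 of 32 cells held 13 of the 19 UMIs. In endothelial cells 1, nerve cells 2 and immune cells the mean lay between 1.24 and 2.83 CPM. Red blood cells, which should lack the transcript, had 7.42 ± 9.09 CPM from 2 UMIs, so these low values are not above background. Tendon fibroblasts held 75.6% ± 19.4 of the Mmp2 UMIs of a library (SD, n = 4). This share rests on the cells recovered: the 3 tendon fibroblast populations numbered 172, 14, 162 and 32 cells in the 4 libraries.

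Mmp3, the stromelysin that cleaves proteoglycans and other MMP precursors, was the rarest member, with 186 UMIs in all. Tendon fibroblasts 3 held 129 of these UMIs in 19 of their 51 cells, and 5 cells held 85 of them. The highest cell carried 31. The level was 435 CPM in tendon fibroblasts 3 of library 1. In tendon fibroblasts 2 it was 32 and 33.7 CPM in libraries 1 and 3. In tendon fibroblasts 1 there were 2 UMIs, in pericytes 1 and in every other population 0. Mmp3 is listed at 0 in every cell of libraries 2 and 4, and whether it was removed there by a gene filter is not known. It therefore passed the filter on low counts in none of the comparisons below.

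Mmp14, the membrane-bound MMP that cleaves fibrillar collagen and activates pro-MMP2, had a broader distribution. It was highest in bursal fibroblasts (494, 379 and 506 CPM in libraries 1, 3 and 4), followed by tendon fibroblasts 3 (422 CPM) and tendon fibroblasts 2 (465, 258 and 209 CPM). In tendon fibroblasts 1 it reached 100, 39.1, 40.4 and 60.4 CPM in libraries 1 to 4, below every value of tendon fibroblasts 2. Endothelial cells 3 stood at 307 CPM in library 1, and pericytes at 159 ± 83.2 CPM (n = 4), which overlapped nerve cells 3 at 164 ± 96.1 CPM (n = 3). Of the 22 Mmp14 UMIs of nerve cells 3, 1 cell held 12. In nerve cells 2 and red blood cells it had 0 UMIs.

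The aggrecanases differed in the cells that carried them. Adamts1, which cleaves aggrecan and versican, was mainly a transcript of vessel cells. It stood at 1254, 612, 807 and 513 CPM in endothelial cells 2 of libraries 1 to 4, at 501, 531, 632 and 870 CPM in pericytes and at 617, 291, 264 and 390 CPM in endothelial cells 1. The ranges of these 3 populations overlapped each other and that of nerve cells 3 (636 ± 143 CPM, n = 3). Tendon fibroblasts 1 were far lower at 38 ± 10.8 CPM (n = 4), and tendon fibroblasts 2 stood at 134 ± 15.7 CPM (n = 3). A list of 16 genes known to respond to tissue dissociation (Fos, Jun, Egr1 and others) was high in some of the same populations. It summed to 12260 ± 3639 CPM in pericytes, 10639 ± 1189 CPM in endothelial cells 2, 7428 ± 1728 CPM in endothelial cells 1 and 25065 ± 10618 CPM in nerve cells 3, with all 16 genes detected in each. For tendon fibroblasts 1 and 2 it was 7887 ± 2423 and 5810 ± 1497 CPM, and in nerve cells 2, where Adamts1 stood at 79.8 ± 10.7 CPM (n = 2), it was 19301 ± 3384 CPM. The part of this response in the Adamts1 values was not tested.

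Adamts5, a strong aggrecanase, was instead a fibroblast transcript. Bursal fibroblasts had 1209, 1006 and 541 CPM in libraries 1, 3 and 4, tendon fibroblasts 1 had 446, 313, 462 and 612 CPM in libraries 1 to 4, and tendon fibroblasts 2 had 437, 284 and 137 CPM. The ranges of neighbours in this order overlapped. Tendon fibroblasts 3 stood at 267 CPM in library 1. Nerve cells 1 followed at 206 ± 67.4 CPM (n = 3), and immune cells had 0 UMIs of Adamts5.

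**Figure D1:**
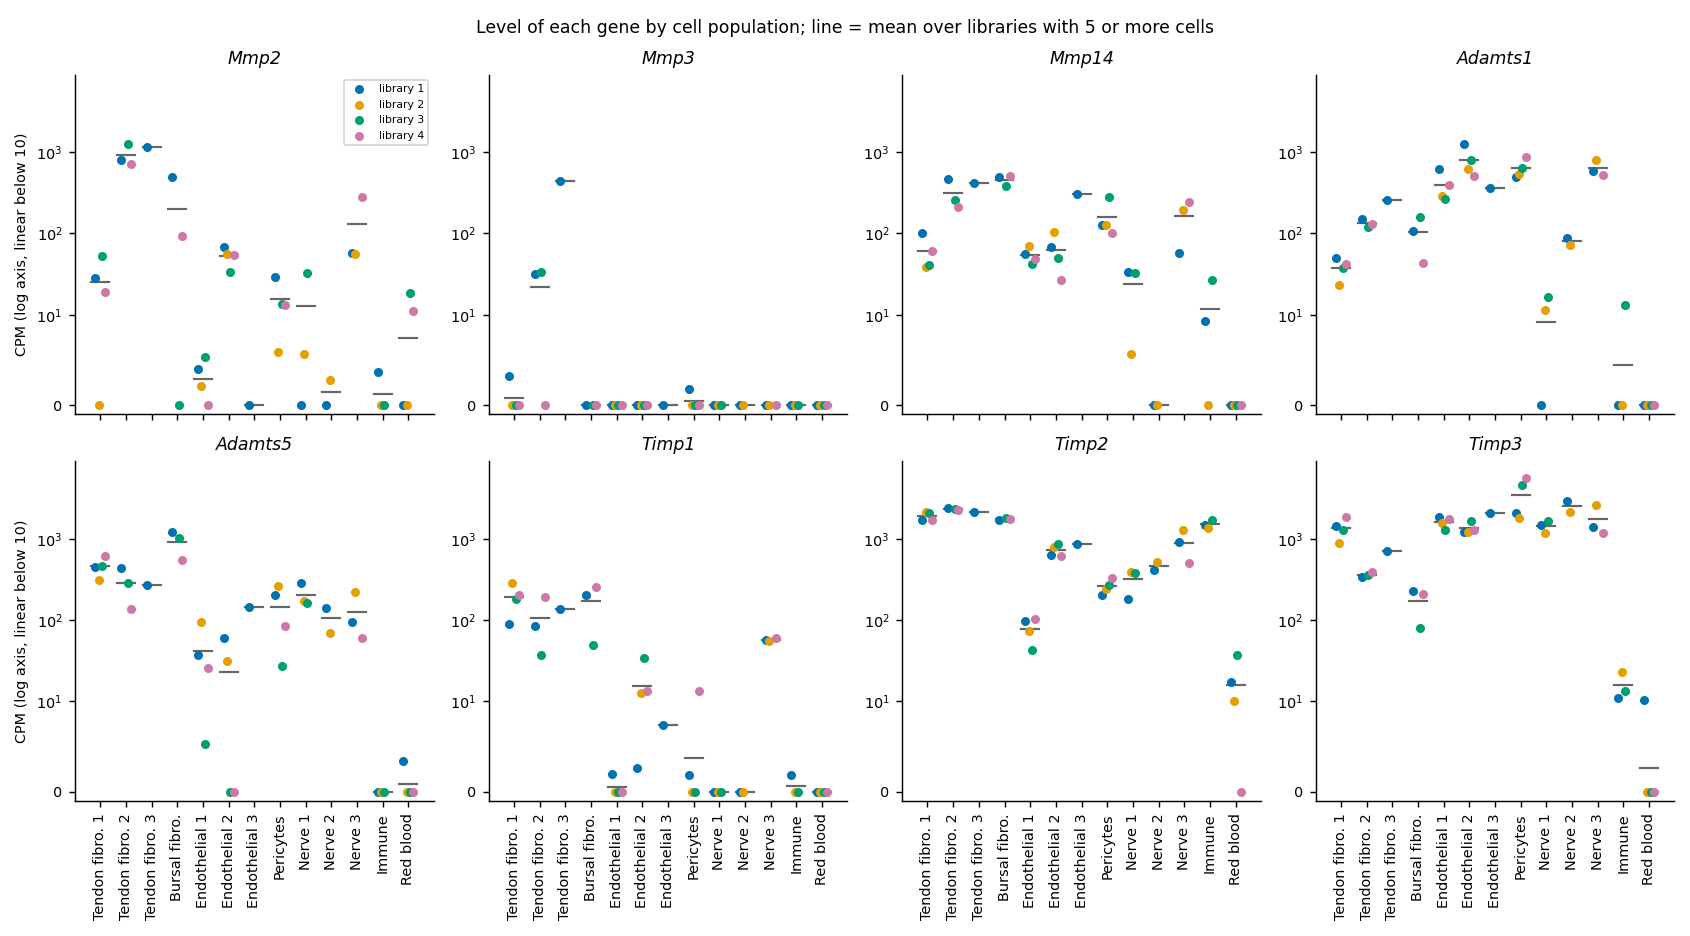
Level of each gene (CPM, log axis that is linear below 10) in the 13 populations. Points are libraries with 5 or more cells of the population and lines their mean. Mmp2 stands high in tendon fibroblasts 2 and 3, Mmp3 in tendon fibroblasts 3, Adamts1 in endothelial cells, pericytes and nerve cells 3, and Timp2 and Timp3 in most populations.

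Among the inhibitors, Timp2 had the highest mean level of the 8 genes in each fibroblast population. In tendon fibroblasts 1 of library 4, Timp3 stood above it (1846 against 1714 CPM). Timp2 stood at 2367, 2344 and 2231 CPM in tendon fibroblasts 2, at 1699, 2141, 2083 and 1714 CPM in tendon fibroblasts 1 and at 1706, 1813 and 1766 CPM in bursal fibroblasts. Immune cells, which had almost no other member, carried 1454, 1368 and 1717 CPM in libraries 1, 2 and 3. Endothelial cells 1 were the low end among the nucleated populations at 95.9, 72.7, 42.2 and 103 CPM, and red blood cells had 16.1 ± 15.7 CPM.

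Timp3 was highest in pericytes, at 2074, 1808, 4598 and 5503 CPM in libraries 1 to 4, so that libraries 3 and 4 stood above the other pair. Marker sums of these pericytes split the same way. The 7 pericyte and smooth muscle markers were lower in libraries 3 and 4 (17914, 21416, 13243 and 15618 CPM in libraries 1 to 4), and the 5 endothelial markers were higher there (474, 324, 1250 and 985 CPM). The part of these differences in the Timp3 values was not tested. All 107 pericytes had Timp3, and 1 cell held 622 of its 3350 UMIs and 5 cells 38.7%. Endothelial cells, nerve cells and tendon fibroblasts 1 had means between 1337 and 2538 CPM, and among those with 2 or more libraries neighbours in this order overlapped. Tendon fibroblasts 2 were lower at 339, 359 and 387 CPM, bursal fibroblasts lower still at 228, 79.7 and 207 CPM, and immune cells had 11.1, 23.2 and 13.2 CPM. The ranges of these last 3 populations did not overlap.

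Timp1, the inhibitor that many cells induce on injury, was confined in the main to fibroblasts at modest levels. Tendon fibroblasts 1 had 189 ± 79.1 CPM (n = 4), bursal fibroblasts 170 ± 107 CPM (n = 3), tendon fibroblasts 3 had 138 CPM and tendon fibroblasts 2 had 105 ± 80.1 CPM (n = 3), with overlapping ranges. Outside fibroblasts only nerve cells 3 (57.4 ± 2.84 CPM, n = 3) passed 15.6 CPM, the mean of endothelial cells 2.

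Levels sum over cells, so the share of cells with at least 1 UMI was also counted, after every cell was thinned to 2400 UMIs to equalize depth, which left out 114 shallower cells. Mmp2 was found in 75% of 148 cells of tendon fibroblasts 2 and 5.59% of 161 cells of tendon fibroblasts 1 (87.8% and 15% unthinned). Timp2 was found in 97.5% of tendon fibroblasts 1 and 14.8% of endothelial cells 1 (98.8% and 41.1% unthinned). Red blood cells, which should lack all 8 transcripts, gave the background: at most 1.89% of 106 thinned cells had a UMI of any member, and that was Timp2 (3.45% of 145 cells unthinned). Their median depth was 4132 UMIs before thinning, against 8824 in tendon fibroblasts 1 and 10662 in tendon fibroblasts 2.

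The 3 parts of the pro-MMP2 activating complex (Mmp2, Mmp14 and Timp2) were found together in 40.5% of thinned cells of tendon fibroblasts 2. The share was 45.7% for tendon fibroblasts 3 and 37.8% for the bursal population. In tendon fibroblasts 1 and in both larger endothelial populations no thinned cell held all 3. Without thinning the shares were 73.7%, 70.6% and 70%, against 8.67% in tendon fibroblasts 1, 12.2% in endothelial cells 2 and 0.526% in endothelial cells 1. In tendon fibroblasts 2 the thinned share of cells with both MMPs (41.2%) was close to the product of the single shares (41%).

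**Figure D2:**
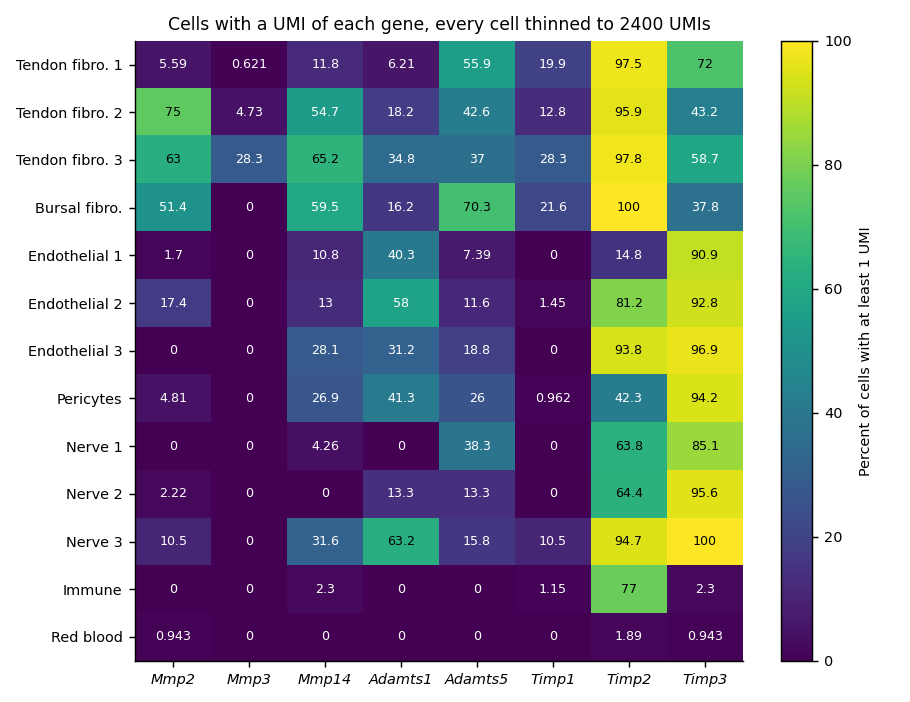
Percent of cells with at least 1 UMI of each gene, by population, after thinning every cell to 2400 UMIs. Colour runs from 0 to 100% and each field prints its value. Timp2 reaches 97.5% in tendon fibroblasts 1 and 14.8% in endothelial cells 1, and red blood cells stay at or below 1.89%.

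The balance of proteases and inhibitors within a population was described by how the UMIs of the 8 genes divide. Capture differs between genes, so these shares compare populations rather than amounts of protein. The summed level of the 8 genes was similar in tendon fibroblasts 1 (4048 ± 356 CPM, n = 4) and 2 (4449 ± 393 CPM, n = 3). Inhibitors made up 85.7% ± 2.88 (n = 4) of the sum for tendon fibroblasts 1 but 62.9% ± 6.5 (n = 3) for population 2. They made up 53.7% for population 3 and 56.4% ± 8.65 (n = 3) for bursal cells. The 3 MMPs made up 2.12% ± 0.996, 27.8% ± 4.92, 36.7% and 16.9% ± 5.75 in the same order. Bursal fibroblasts had the largest aggrecanase share of the fibroblasts, 26.7% ± 8.53. In immune cells 99% ± 1.13 of the UMIs were inhibitor transcripts, nearly all Timp2.

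**Figure D3:**
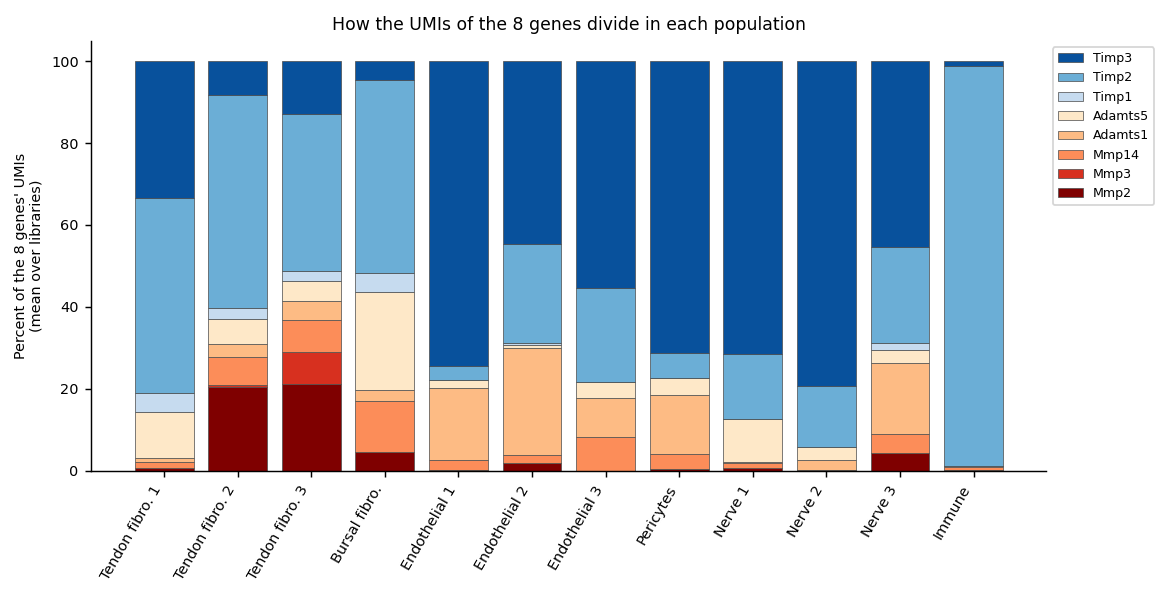
Percent of the 8 genes' UMIs that belongs to each gene (mean over libraries with 5 or more cells), in the 12 populations other than red blood cells. Reds and oranges are proteases and blues inhibitors. Inhibitors fill 85.7% of the bar of tendon fibroblasts 1 and 53.7% of that of tendon fibroblasts 3.

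Differences between populations were tested on the summed counts with edgeR's quasi-likelihood test, with the library as a block and p-values adjusted over all genes tested (called below 0.05). A gene with few or no UMIs on a side can pass the filter on low counts through the other side alone. The direction of its call is then fixed in advance. Fold changes are log2 values ± SE on the scale of TMM normalization, which evens out the composition of the sums. It set the fitted differences of tendon fibroblasts together 0.36 to 0.47 above those on library totals, and moved the other comparisons by -0.08 to 0.19. Between tendon fibroblasts 1 and 2, 4 of the 7 members tested passed, 1 higher and 3 lower in tendon fibroblasts 1, against 8.12% of all genes tested (4.33% higher and 3.79% lower). Timp3 was higher in tendon fibroblasts 1, by 2.25 ± 0.23 (adjusted p = 0.000378). Lower there were Mmp2, by -4.59 ± 0.25 (adjusted p = 1.64e-05), Mmp14, by -2.08 ± 0.26 (adjusted p = 0.00125), and Adamts1, by -1.45 ± 0.24 (adjusted p = 0.00474). For these 4 genes the populations did not overlap, and each of the 3 libraries showed the direction. The share of all genes tested without overlap was not counted, here or in the comparisons below. Adamts5 (1.01 ± 0.35, adjusted p = 0.133) and Timp1 (1.05 ± 0.38, adjusted p = 0.159) did not pass. Timp2 differed by -0.14 ± 0.20 (adjusted p = 0.8), although its CPM ranges did not overlap. For Mmp3 the 2 UMIs of tendon fibroblasts 1 against 54 gave a CPM ratio of 25 in favour of tendon fibroblasts 2 (exact 95% interval 6.6 to 212, counting error only).

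Bursal fibroblasts, from the fluid-filled pad beside the tendon, were compared with both populations in libraries 1, 3 and 4, where they had 30, 5 and 5 cells. The fibroblast comparisons share sums with each other and are not independent. Against tendon fibroblasts 1, 2 of 7 members passed, beside 15% of all genes tested (8.99% higher and 6% lower in tendon fibroblasts 1). Timp3 was higher in tendon fibroblasts 1, by 3.34 ± 0.37 (adjusted p = 1.93e-05), and Mmp14 lower, by -2.65 ± 0.31 (adjusted p = 3.52e-05), each without overlap. Mmp2 did not pass (-2.05 ± 0.85, adjusted p = 0.142), and its value turned on single libraries. Without library 1 the difference was 0.0076 (adjusted p = 0.997), and without library 3 it was -3.46 and passed (adjusted p = 2.46e-05). These are the highest and lowest adjusted p over all alternatives, and without the filter on low counts Mmp2 also passed (-1.96, adjusted p = 0.000222). Adamts1 (-1.09 ± 0.38, adjusted p = 0.0772) and Adamts5 (-0.65 ± 0.36, adjusted p = 0.3) did not pass either. Timp1 and Timp2 differed by -0.01 ± 0.45 and 0.22 ± 0.29 (adjusted p = 0.993 and 0.713). Adamts1 passed on library totals without TMM (-1.23, adjusted p = 0.0393) and without library 4 (-1.36, adjusted p = 0.0222), and its adjusted p reached 0.494 over all alternatives. Mmp3, at 2 UMIs against 0, was too low for a fold. Against tendon fibroblasts 2, 1 of 7 members passed, beside 6.45% of all genes tested (4.15% higher and 2.3% lower in tendon fibroblasts 2). Adamts5 was lower in tendon fibroblasts 2, by -1.74 ± 0.33 (adjusted p = 0.00862), in all 3 libraries. This call was lost with no replicate block (adjusted p = 0.0701), without library 4 (0.12) and in thinned cells (0.0682), and over all alternatives its adjusted p ran from 0.00038 to 0.12. Mmp2 differed by 2.76 ± 0.96 (adjusted p = 0.143), and on library totals without TMM it passed (adjusted p = 0.0275; 1.28e-07 to 0.573 over all alternatives). Mmp14 (-0.60 ± 0.34), Adamts1 (0.39 ± 0.36), Timp1 (-0.85 ± 0.36), Timp2 (0.40 ± 0.34) and Timp3 (1.08 ± 0.41) had adjusted p of at least 0.186. Mmp3 had 0 UMIs in bursal fibroblasts and was at least 8.49-fold higher in tendon fibroblasts 2, against a floor of 3 counts over the group.

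**Figure D4:**
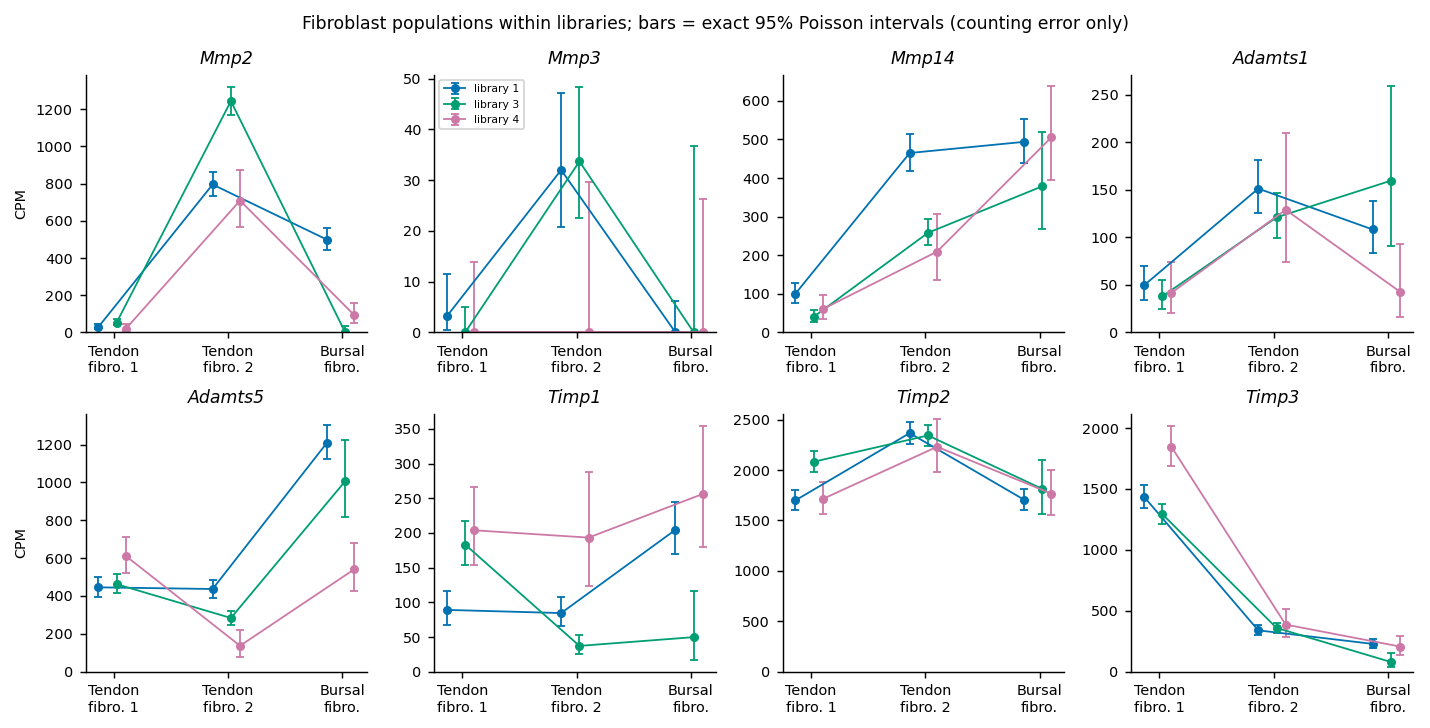
CPM of each gene in tendon fibroblasts 1, tendon fibroblasts 2 and bursal fibroblasts of libraries 1, 3 and 4. Lines join the values of a library and bars are exact 95% Poisson intervals for counting error. Timp3 is higher in tendon fibroblasts 1 (1294 to 1846 CPM) than in tendon fibroblasts 2 (339 to 387 CPM) in each library, and Mmp2 runs the other way.

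The 3 tendon fibroblast populations were next summed and set against other cells, in comparisons that share the tendon fibroblast sums. The sum mixes populations with unlike levels, so a difference of the sum need not hold in each of them. Tendon fibroblasts 1 alone had 25 ± 21.9 CPM of Mmp2 and 60 ± 28.5 CPM of Mmp14. Pericytes had 15.4 ± 9.77 CPM of Mmp2, and endothelial cells 1 had 54.2 ± 12.3 CPM of Mmp14. Against pericytes, the contractile cells around small vessels, 6 of 7 members passed, beside 32.5% of all genes tested (16.6% higher and 15.8% lower in tendon fibroblasts). Mmp2 (577, 155, 688 and 283 against 29.1, 5.83, 13.4 and 13.3 CPM) was higher in tendon fibroblasts by 4.86 ± 0.31 (adjusted p = 5.1e-07). Timp1 (5.70 ± 0.49, adjusted p = 4.85e-06), Timp2 (3.35 ± 0.23, adjusted p = 9.09e-07) and Adamts5 (1.74 ± 0.42, adjusted p = 0.00791) were higher too. Timp1 and Mmp2 had 4 and 22 UMIs in pericytes and passed the filter through tendon fibroblasts alone, so their direction was fixed in advance. Without library 4 the call of Adamts5 was lost (adjusted p = 0.0572, the highest over its alternatives, with 3.94e-08 the lowest). Adamts1 (-1.64 ± 0.31, adjusted p = 0.00149) and Timp3 (-1.41 ± 0.24, adjusted p = 0.000849) were lower in tendon fibroblasts. These 6 genes did not overlap between the populations, while the share of all genes without overlap was not counted. Mmp14 overlapped and did not pass (0.67 ± 0.31, adjusted p = 0.128). Without library 3 Mmp14 passed (1.02, adjusted p = 0.0141). Mmp3, with 1 UMI in pericytes, had a CPM ratio of 56.5 (exact 95% interval 10.0 to 2243).

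Against endothelial cells 1, the larger vessel-lining population, 6 of 7 members passed, beside 44.7% of all genes tested (22.6% higher and 22.1% lower in tendon fibroblasts). Mmp2 (7.52 ± 0.33), Timp2 (5.13 ± 0.25), Adamts5 (3.64 ± 0.40) and Mmp14 (2.25 ± 0.27) were higher in tendon fibroblasts in each of 4 libraries, with adjusted p of at most 1.58e-05. Mmp2 had 6 UMIs in endothelial cells 1 and passed the filter through tendon fibroblasts alone, so its direction was fixed in advance. Timp1 had 2 UMIs in endothelial cells 1, a CPM ratio of 115 (exact 95% interval 31.7 to 955), and passed the filter through tendon fibroblasts alone. Adamts1 was lower in tendon fibroblasts, by -0.84 ± 0.31 (adjusted p = 0.0448), in 3 of 4 libraries, and library 2 ran the other way. There 2 cells of tendon fibroblasts 2 stood at 3159 CPM of Adamts1. The call was lost with no replicate block, with DESeq2 and without library 1, 3 or 4 (adjusted p between 0.0651 and 0.297, and 0.000237 at the lowest over all alternatives). Timp3 did not pass (-0.34 ± 0.18, adjusted p = 0.148), and did on library totals without TMM (-0.81, adjusted p = 0.00169, against up to 0.632 over all alternatives). Mmp3, with 0 UMIs in endothelial cells 1, was at least 31.4-fold higher in tendon fibroblasts.

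Against nerve cells together 5 of 7 members passed and all were higher in tendon fibroblasts, beside 28.7% of all genes tested (16.4% higher and 12.4% lower). Timp2 (2.49 ± 0.29, adjusted p = 0.000356), Timp1 (4.27 ± 0.66, adjusted p = 0.0015) and Adamts5 (1.83 ± 0.36, adjusted p = 0.00479) did so in each library without overlap. Timp1 had 8 UMIs in nerve cells and passed the filter through tendon fibroblasts alone, so its direction was fixed in advance. Mmp2 (3.85 ± 0.84, adjusted p = 0.00844) and Mmp14 (2.53 ± 0.69, adjusted p = 0.0242) overlapped. Library 4 held 6 nerve cells, 5 of them nerve cells 3, and stood at 268 CPM of Mmp2 and 230 CPM of Mmp14. There 1 cell held 13 of the 23 Mmp2 UMIs of all nerve cells. Of their 27 Mmp14 UMIs, 12 also lay in 1 cell of library 4. Without library 4 the differences were 5.34 and 3.74. Without library 2 both calls were lost (adjusted p = 0.0665 and 0.138), and that of Mmp14 also without library 1 or 3 (0.123 and 0.0877) and on library totals without TMM (0.0534). Over all alternatives the lowest adjusted p was 2.37e-18 for Mmp2 and 8.13e-08 for Mmp14. Adamts1 (0.20 ± 0.50) and Timp3 (-0.52 ± 0.36) did not pass. Timp3 did without library 4 (-0.83, adjusted p = 0.0148; 0.00373 to 0.72 over all alternatives). Mmp3 had 0 UMIs in nerve cells and was at least 15.3-fold higher in tendon fibroblasts.

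Against immune cells, in libraries 1, 2 and 3, all 7 members tested passed and were higher in tendon fibroblasts, beside 29.1% of all genes tested (16.4% higher and 12.7% lower). Mmp2, Adamts1, Adamts5 and Timp1 had at most 2 UMIs in immune cells and passed the filter through tendon fibroblasts alone. Their direction was therefore fixed in advance. Timp3 was higher by 6.39 ± 0.45 (adjusted p = 1.31e-06) and Mmp14 by 4.98 ± 0.56 (adjusted p = 3.47e-05). Immune cells of all libraries together held 10 UMIs of Timp3 and 9 of Mmp14. Both genes thus also passed the filter through tendon fibroblasts alone, with their direction fixed in advance. Adamts5, with 0 UMIs in immune cells, was at least 84-fold higher against a floor of 3 counts over the group, and Mmp3, also at 0, at least 11.6-fold. Mmp2, Adamts1 and Timp1 had 1 or 2 UMIs there, for CPM ratios of 199.99, 79.8 and 70.0. The exact 95% intervals of these ratios began at 55.3, 14.2 and 12.5. Timp2 differed least, by 0.96 ± 0.28 (adjusted p = 0.0232), and this call was lost without library 1 (adjusted p = 0.319) and on library totals without TMM (0.45, adjusted p = 0.266), with 0.00866 the lowest over all alternatives.

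Within the vessels, 5 of 5 members tested were higher in pericytes than in endothelial cells 1, beside 34.2% of all genes tested (16.6% higher and 17.6% lower). They were Adamts5 (2.07 ± 0.26, adjusted p = 0.00014), Timp2 (1.75 ± 0.23, adjusted p = 0.000207), Mmp14 (1.43 ± 0.27, adjusted p = 0.00197), Timp3 (1.08 ± 0.27, adjusted p = 0.0112) and Adamts1 (0.83 ± 0.26, adjusted p = 0.0284). Without library 4 Timp3 did not pass (adjusted p = 0.0683; 5.62e-07 at the lowest over all alternatives), and Adamts1 did not without library 2, 3 or 4, in thinned cells or on library totals without TMM (adjusted p between 0.0597 and 0.267; 0.00409 at the lowest). Mmp2 (22 against 6 UMIs), Mmp3 (1 against 0) and Timp1 (4 against 2) were too low to be tested. The 5 endothelial markers summed to 758 ± 433 CPM in pericytes and 4888 ± 334 CPM in endothelial cells 1, and their part in these values was not tested. Between endothelial cells 1 and 2, 3 of 5 members passed, beside 18.2% of all genes tested (7.74% higher and 10.5% lower in endothelial cells 1). All 3 were lower in endothelial cells 1: Mmp2 by -4.24 ± 0.53 (adjusted p = 1.91e-05), Timp2 by -3.17 ± 0.22 (adjusted p = 3.55e-08) and Adamts1 by -1.09 ± 0.18 (adjusted p = 0.000278), each in 4 of 4 libraries. Mmp2, at 6 against 50 UMIs, passed the filter through endothelial cells 2 alone, so its direction was fixed in advance. Timp2 was 78.5 ± 27.4 against 721 ± 123 CPM. Mmp14 (-0.38 ± 0.27, adjusted p = 0.406) did not pass. Adamts5 (93 against 33 UMIs) was not tested, Mmp3 had no UMI, and Timp1 had 2 against 8 UMIs, a CPM ratio of 9.55 in favour of endothelial cells 2 (exact 95% interval 1.91 to 92.3). Timp3 (0.23 ± 0.15, adjusted p = 0.38) did not pass, and did without library 3 (0.41, adjusted p = 0.0289; up to 0.802 over all alternatives).

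**Figure D5:**
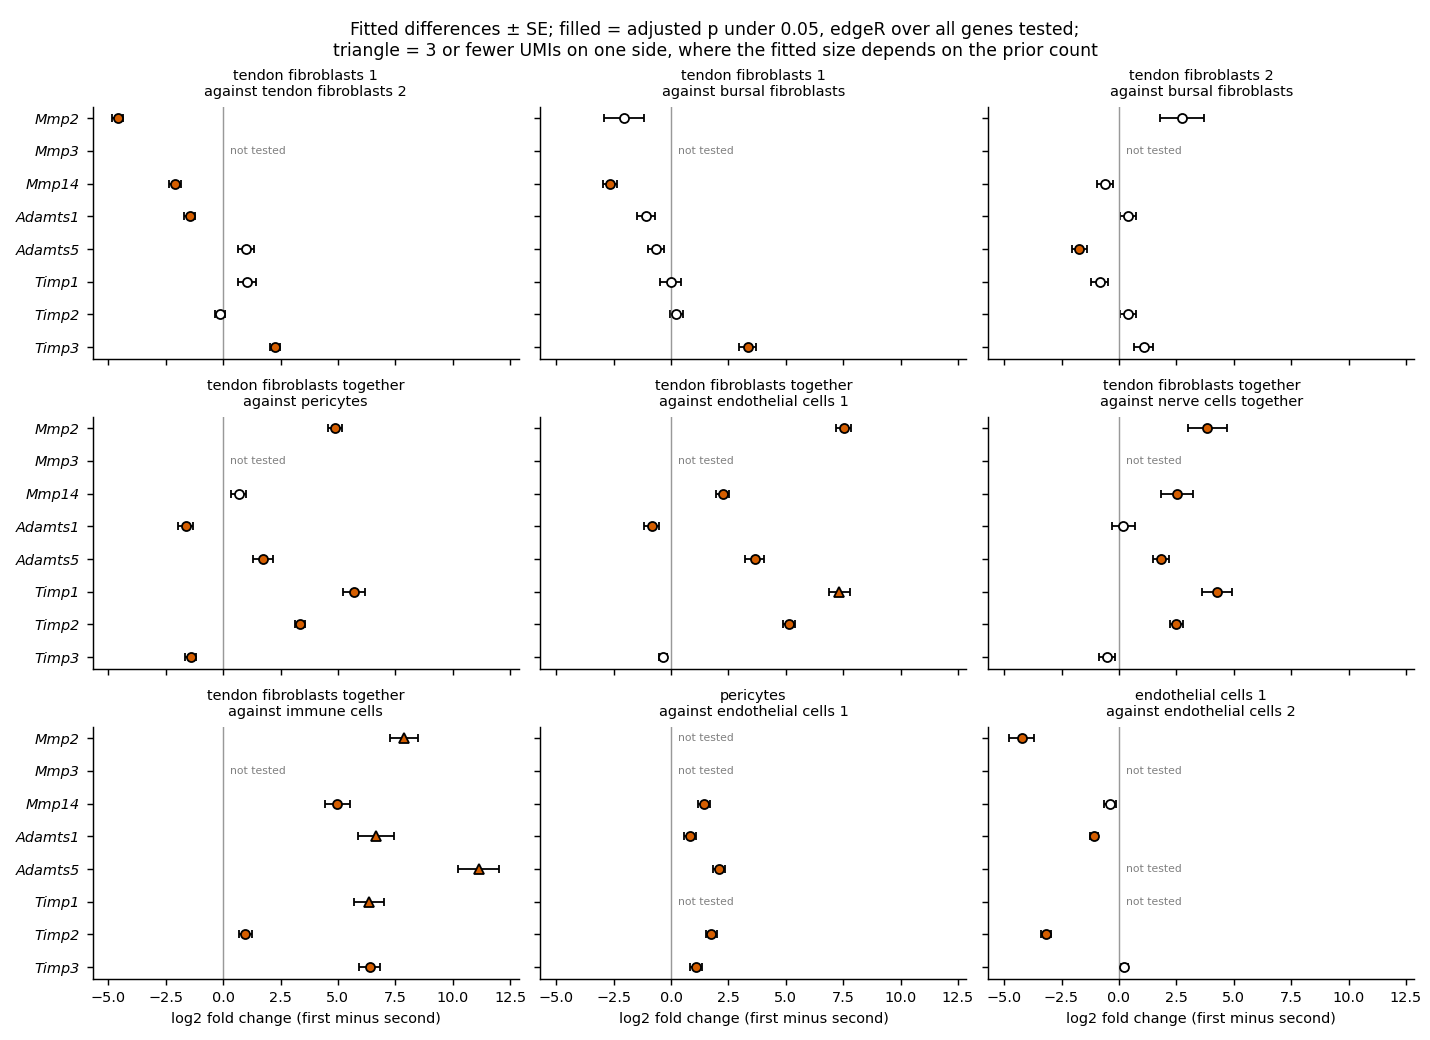
Fitted log2 fold change (first population minus second) ± SE of each member in the 9 comparisons. Filled symbols have an adjusted p under 0.05, and triangles mark genes with 3 or fewer UMIs on a side. Mmp2, Mmp14 and Adamts1 lie to the left and Timp3 to the right in tendon fibroblasts 1 against 2.

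Other genes of matrix breakdown were read from a list of 70, of which 56 were in the table: further MMPs, ADAMTS and ADAM enzymes, serine proteases, cathepsins, inhibitors and the proteoglycans that aggrecanases cleave. Between tendon fibroblasts 1 and 2, 6 of 27 tested were higher in tendon fibroblasts 1 and 3 lower. Of all genes tested, 4.33% were higher there and 3.79% lower. The median difference of the 27 was -0.35, against 0.01 over all genes tested. Of the substrates, Acan, which encodes aggrecan, stood at 350 ± 65.5 against 3.18 ± 3.53 CPM and Vcan, for versican, at 1821 ± 709 against 613 ± 161 CPM. The cysteine protease inhibitor Cst3 (16238 ± 3266 against 3382 ± 1296 CPM), the serine protease inhibitor Serpine2 and Adamts6 were higher as well. Lower in tendon fibroblasts 1 were the C1 inhibitor Serping1 (235 ± 142 against 1878 ± 360 CPM), the procollagen C-proteinase Bmp1 (85 ± 13.3 against 312 ± 83.3 CPM) and the collagen-degrading cathepsin Ctsk (139 ± 75.1 against 417 ± 52.3 CPM).

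Bursal fibroblasts differed from tendon fibroblasts 1 in 16 of 26 listed genes, 10 higher and 6 lower in tendon fibroblasts 1. Of all genes tested, 8.99% were higher in tendon fibroblasts 1 and 6% lower. Ctsk was 1155 ± 560 CPM in bursal fibroblasts, and Adamts7 was at least 20.3-fold higher there, since tendon fibroblasts 1 had 0 UMIs. Vcan stood at 38 ± 18.5 CPM in bursal fibroblasts. Of 24 listed genes tested between tendon fibroblasts 2 and bursal fibroblasts, 5 were higher in tendon fibroblasts 2 and 2 lower. Of all genes tested, 4.15% were higher in tendon fibroblasts 2 and 2.3% lower. The procollagen N-proteinase Adamts2 was 809 ± 158 CPM in tendon fibroblasts 2 and 106 ± 25.3 CPM in bursal fibroblasts.

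In the vessels other family members were prominent. Timp4, the remaining TIMP, stood at 898 ± 486 CPM in endothelial cells 1, 110 ± 53.5 CPM in endothelial cells 2, 167 ± 59.7 CPM in pericytes and 2.56 ± 2.11 CPM in tendon fibroblasts. It passed between endothelial cells 1 and 2 (2.73 higher, adjusted p = 2.54e-06), while Timp2 was lower there. Adamts9, like Adamts1 a versican-cleaving enzyme, was 176 ± 53.4 CPM in endothelial cells 1 and 590 ± 282 CPM in endothelial cells 2, and Adamts4 was 29.5 ± 13 and 148 ± 66.6 CPM. Both were lower in endothelial cells 1, as Adamts1 was. Of the MMPs outside the 8, Mmp15 alone was tested between endothelial populations and was higher in endothelial cells 1 (117 ± 35 against 27.2 ± 9.84 CPM). Tendon fibroblasts exceeded pericytes in 17 of 28 listed genes, endothelial cells 1 in 19 of 29, nerve cells in 17 of 24 and immune cells in 17 of 27, and were lower in 4, 5, 2 and 6. Of all genes tested, 16.6%, 22.6%, 16.4% and 16.4% were higher in tendon fibroblasts, in the same order. Lower there were 15.8%, 22.1%, 12.4% and 12.7%. Immune cells carried more of the lysosomal protease Ctss (1673 ± 588 against 1 ± 0.904 CPM).

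Across the means of the 13 populations, each member's pattern was compared with those of 7293 genes by Pearson's r of log2(CPM + 10). The points share cells, libraries and scaling, so r only describes likeness. Closest to Mmp2 were C1ra (0.93), Gpnmb and Islr. Closest to Mmp14 were Fstl1 (0.92), Klhl13 and Aebp1, and to Mmp3 Inmt, Tspan11 and Mfap4, which all peaked in tendon fibroblasts 3. Adamts1 was most like Id3 (0.92), Apbb2 and Osmr, and Adamts5 most like Ltbp3 (0.94), P3h4 and Ikbip. Timp1 followed Pamr1 (0.93), Ndrg4 and Abi3bp, Timp2 followed Fgfr1 (0.94), Erlec1 and Ergic3, and Timp3 followed Atn1 (0.95), Cdc42bpa and Zc2hc1a. Among the members themselves r was 0.80 for Mmp2 and Timp1, 0.70 for Adamts1 and Timp3, 0.19 for Timp2 and Timp3 and 0.06 for Timp1 and Timp3.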

How the data were processed

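Per the submitters' processing notes, the authors used Cell Ranger, the mm10 build and Seurat 2.3.4 in R 3.5.2; how cells and genes were filtered is not given in the sources used here. The authors deposited raw UMI counts per gene and cell, with a table naming each cell's library and population. Normalized values that the authors deposited as natural logs served only as a check of the counts, with a largest difference of 5.0e-10. Of 15750 gene entries, 4 with repeated names (0.0186% of UMIs) were left out. The recorded UMIs of a cell exceeded its table total by a median of 0.0985%.

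UMIs were summed per library and population (5 or more cells, 3 or more libraries per comparison) and tested in R 4.3.3 with edgeR 4.0.16 (TMM, filterByExpr by population, library block, Benjamini-Hochberg adjustment). A fitted SE is the log2 fold change divided by the root of the F statistic. Both sums of a comparison come from the same library, which pairs them, with correlations of deviations between -0.0282 and 0.201. The test recovered 46% to 78.5% of genes changed by 2 on the log2 scale in simulated counts for the 9 comparisons, on 4852 to 7093 genes. These counts were drawn from the pooled mean of each gene with a fixed dispersion and no library effect. Recovery in the real sums may therefore differ. Intervals are exact (Poisson or Clopper-Pearson, 95%) and cover counting error only; a floor is 3 counts. Alternatives were DESeq2 1.42.0, RLE factors, no filter, no replicate block, each library left out, 10 or more cells and thinned cells. The depth was 1375111 to 5603366 UMIs per library. A fit on library totals without TMM was added after seeing the data.

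The members and gene lists were chosen with earlier results of these data known. All 8 members are named in each comparison. Of the other listed genes, up to 5 per direction with the largest fold change, an adjusted p under 0.05 and 20 or more CPM on the higher side could be named. For likeness, the 3 highest correlations among genes with 50 or more CPM in a population were named. Sequences come from GENCODE M21 transcripts. Sums, intervals and plots were made with scipy 1.17.1, pandas 2.3.3, matplotlib 3.10.9 and numpy 2.4.6 under python 3.11.15. No doublet caller was run, and whether doublets were removed before deposit is not given in the sources used here.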

Additional observations from a re-analysis of the deposited data

Results flagged for a closer look

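In 49 sets of 4 library values of a member in a population, 10 had a highest library far from the other 3. Chance flags about 1 in 20 sets of evenly spread values, but a set with UMIs in 1 library alone is always picked out, so the count of 10 cannot be set against that rate. Library 4 stood apart for nerve cells together, with 268 CPM of Mmp2 and 230 CPM of Mmp14, most of it from 1 cell per gene. Library 4 stood apart as well for tendon fibroblasts together, with 1281 CPM of Timp3. It also had the highest Timp1 of pericytes, 13.3 CPM. Library 3 had the highest Mmp14 of pericytes, 282 CPM. The other 5 sets had UMIs in library 1 alone: Mmp3 at 3.18 CPM for tendon fibroblasts 1 and at 1.82 CPM for pericytes, Timp1 at 1.98 CPM in endothelial cells 1, and Adamts5 at 3.44 CPM and Timp3 at 10.3 CPM in red blood cells. These 5 values rest on 1 to 3 UMIs.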

How the results depend on the processing

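Of 591 values of members under alternative settings, 544 kept their direction and their side of the threshold, 22 lost a call, 16 gained one and 9 changed direction. No value that changed direction had been called. Timp1 in tendon fibroblasts 1 against bursal fibroblasts turned to 0.13 with DESeq2, 0.082 without the filter and from -0.66 to 0.83 with each library left out, above 0 without library 1 or 4. Mmp2 there ranged from -3.46 to 0.0076 with each library left out, the latter without library 1. Mmp14 in tendon fibroblasts 2 against bursal fibroblasts turned to 0.42 in thinned cells, and Adamts1 in tendon fibroblasts against nerve cells to -0.029 in thinned cells and -0.22 on library totals. It ranged from -0.44 (without library 2) to 0.79 with each library left out. For other listed genes that had been called, 739 of 781 values kept their call and 42 lost it. None of these could gain a call, so the counts do not describe the whole list.

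Without the filter 7 of 8 members were called between tendon fibroblasts 1 and 2, beside 1073 of 14114 genes. Between tendon fibroblasts 2 and bursal fibroblasts 3 of 8 were called, beside 727 of 13943 genes. In the latter, 0 of 7 were called with no replicate block, 0 of 7 in thinned cells and 2 of 7 on library totals. Genes called in these settings were 262 of 4960, 84 of 1650 and 367 of 4960. Thinning left 1 call among 4 members tested for tendon fibroblasts 1 against bursal fibroblasts, beside 187 of 1496 genes. For pericytes against endothelial cells 1 it left 2 calls among 3 tested, beside 493 of 988 genes. Leaving out each library gave 0 to 2 calls for tendon fibroblasts 2 against bursal fibroblasts, with 7 or 8 members tested. It gave 3 to 6 of 7 for tendon fibroblasts against nerve cells and 3 to 5 of 5 for pericytes against endothelial cells 1. Genes called without library 1, 3 or 4 were 149 of 2174, 399 of 5140 and 247 of 7319 in the first. Without library 1, 2, 3 or 4 they were 838 of 4623, 913 of 4959, 1009 of 5038 and 2288 of 5914 in the second. In the third they were 1310 of 4945, 1342 of 4885, 2238 of 6425 and 1837 of 6475. The replicate block changed no other member's call than those of Adamts5 (adjusted p = 0.0701) and, against endothelial cells 1, Adamts1 (adjusted p = 0.0651). The cause of these changes was not tested. Genes called over all settings ranged from 292 to 1073 around 572 for tendon fibroblasts 1 against 2, from 187 to 1216 around 777 and from 84 to 727 around 320 against bursal fibroblasts, and from 838 to 2486 around 1400 against nerve cells. For tendon fibroblasts against pericytes, endothelial cells 1 and immune cells they ranged from 480 to 2650 around 1800, 776 to 4272 around 2866 and 562 to 2860 around 1516. For pericytes and endothelial cells 2 against endothelial cells 1 they ranged from 493 to 2918 around 1877 and from 300 to 1102 around 933. The number of genes tested also changed between settings, so these counts are not shares.

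Bursal fibroblasts rest on 5 cells in libraries 3 and 4, tendon fibroblasts 3 and endothelial cells 3 on library 1, and Mmp3 on libraries 1 and 3. Without the filter Mmp3 was tested between tendon fibroblasts 1 and 2 and passed (-4.11, adjusted p = 1.42e-06).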
